A study of Homo sapiens with 26 samples.

Results

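The 35 genes described here act in DNA repair and in the checkpoints that respond to DNA damage. They were chosen by symbol from a fixed list, and all 35 were found among the 16430 genes of the count tables and among the 64235 entries of the FPKM tables. By role they comprise 14 genes of homologous recombination, 10 Fanconi anaemia genes, 6 genes of break sensing and checkpoint signalling, 3 genes of end joining and 2 genes of mismatch repair. RNA was sequenced from MV4-11, a human cell line of acute myeloid leukaemia whose activating FLT3 mutation every group shares. The drug experiment held 18 libraries in 6 groups of 3, deposited as read counts. Its groups were DMSO vehicle, 100 nM dexamethasone (a synthetic glucocorticoid), 10 nM quizartinib (a FLT3 kinase inhibitor) and the combination of both drugs, each at 48 h, and 10 nM quizartinib and the combination at 5 days, where dexamethasone was added on day 3. It has no DMSO group at 5 days, so quizartinib at 5 days was set against DMSO at 48 h. The recovery experiment held 8 libraries in 4 groups of 2, deposited as FPKM (fragments scaled by transcript length and library size). Its groups were untreated cells, cells alive after 48 h in 100 nM quizartinib (called survivors here), and such survivors after 13 or 30 days in drug-free medium. All libraries come from 1 cell line. Whether replicates came from separate cultures is not stated in the labels, so each p measures the spread between these libraries, which may be technical.

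Homologous recombination repairs double-strand breaks by copying an intact sister chromatid, so it works mainly in cells that have begun to replicate their DNA. The Fanconi anaemia pathway removes crosslinks between DNA strands: a core complex attaches ubiquitin to FANCD2 and FANCI, and recombination proteins finish the repair. End joining religates broken ends without a template and can work throughout the cell cycle, and mismatch repair corrects errors left by DNA replication. ATM and ATR are the kinases that sense breaks and stalled replication, and CHEK2 and CHEK1 are the kinases that pass their signals on.

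In the drug experiment a library held 14795190 to 24990476 counts, and the depth behind the FPKM values is unknown. The cells carried RNA of all 7 measured myeloid markers, with a summed level of 762 to 2010 CPM (counts per TMM-scaled library size), while the 2 measured B cell markers summed to at most 1.83 CPM. Of the T and NK cell markers NKG7 was measured, at 11.3 to 22.1 CPM, and the fibroblast and epithelial markers COL1A1 and KRT18 summed to 2.96 to 14.7 CPM. In the recovery experiment, 8 myeloid markers summed to 1170 to 7700 FPKM, 3 B cell markers to 0.961 to 4.24 FPKM, 3 fibroblast and epithelial markers to at most 2.14 FPKM, and 3 erythroid and megakaryocyte markers to at most 0.109 FPKM. NKG7 ranged from 22.96 to 114.9 FPKM, highest in the 13 day libraries, while the T cell genes CD3E and CD3D reached at most 0.127 and 0.162 FPKM. The libraries of the 13 day group stood far apart from each other. In replicate 1 the median of the 35 genes was at 63.1% of the untreated mean, and in replicate 2 it was at 24.1%. Replicate 2 had the largest sum of FPKM over all entries, 3714051 against 2240874 to 2547791 in the other 7 libraries. Its highest single entry was 1204050 FPKM, against 465259 to 604567 in those 7. Replicate 1 had the fewest entries above 0, 22840 against 25653 to 27604. Tests that use this group are given with and without each of these libraries.

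Quizartinib at 48 h was accompanied by lower RNA of nearly all of these genes. Of the 35 genes, 32 fell, 2 rose (ATM and LIG4) and RAD50 was not called (edgeR's quasi-likelihood test, Benjamini-Hochberg adjusted p under 0.05 over all genes). Among all genes tested, 59.4% were called, 30.4% as lower and 29% as higher. All 24 homologous recombination and Fanconi anaemia genes fell, with a median log2 fold change of -2.70, against 0.02 for all genes. In 17 of these 24 genes the fall was at least 4-fold, which 4.73% of all genes reached. Of the 5 end joining and mismatch repair genes, 4 fell and 1 rose, with a median log2 fold change of -0.82. The pattern differed within this smaller group, since PRKDC and MSH6 lay inside the range of the recombination and Fanconi genes, XRCC4 near its upper edge, and PMS2 and LIG4 above it. None of the 5 fell as far as the median recombination and Fanconi gene. These class medians are descriptions, and the difference between classes was not tested. In bulk RNA, fewer cells of a type and less RNA per cell cannot be told apart.

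**Figure D1:**
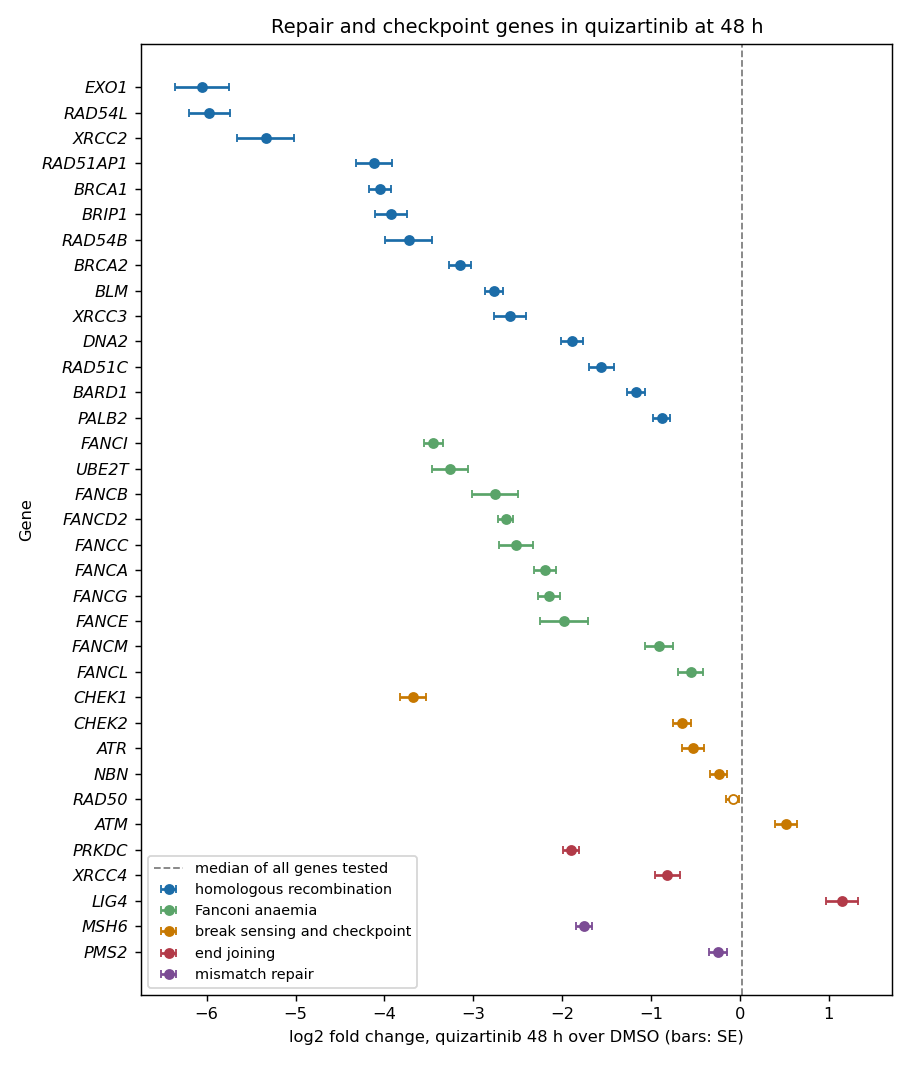
Log2 fold change of each of the 35 genes in quizartinib at 48 h over DMSO (3 libraries a group), grouped by role. Points are edgeR estimates, bars their SE, open points were not called, and the dashed line is the median of all genes at 0.02. The homologous recombination and Fanconi anaemia genes all lie below 0, from EXO1 at -6.05 to FANCL at -0.55, while ATM and LIG4 lie above 0.

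Among the homologous recombination genes, the largest fall was that of EXO1 (chromosome 1, 241847967 to 241895148, GRCh38, plus strand), an exonuclease that trims broken ends. EXO1 had 52.8, 53.2 and 41.5 CPM in the DMSO libraries and 0.616, 0.665 and 0.909 CPM in the quizartinib libraries at 48 h. It fell by 6.05 ± 0.30 on the log2 scale (SE, edgeR adjusted p = 4.5e-12), which is 66.3-fold lower. Its quizartinib level rests on 45 reads in all 3 libraries together. RAD54L (chromosome 1, 46247688 to 46278473, plus strand), a motor protein of the strand exchange step, had 44.8, 39.3 and 34.5 CPM in DMSO against 0.719, 0.717 and 0.455 CPM in quizartinib. The quizartinib level of RAD54L rests on 38 reads in all 3 libraries together. It fell by 5.97 ± 0.23 (adjusted p = 1.5e-13). XRCC2 (chromosome 7, 152644779 to 152676165, minus strand), a member of the recombinase paralog complexes, had 35.3, 34.1 and 27.3 CPM in DMSO against 1.34, 0.614 and 0.455 CPM in quizartinib, and fell by 5.34 ± 0.32 (adjusted p = 9.1e-11). The quizartinib level of XRCC2 rests on 48 reads in all 3 libraries together. For EXO1, RAD54L and XRCC2 every quizartinib library lay far below every DMSO library.

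BRCA1, which directs breaks into recombination, had 112.5, 129.4 and 130.5 CPM in DMSO against 7.44, 8.24 and 6.87 CPM in quizartinib, a log2 fold change of -4.05 ± 0.12 (adjusted p = 8.3e-14). BARD1, the partner with which BRCA1 forms a ubiquitin ligase, changed less, from 44.7, 51.2 and 52.8 CPM to 20.8, 21.4 and 23.8 CPM (log2 fold change -1.17 ± 0.10, adjusted p = 4.1e-08). PALB2, which joins BRCA1 to BRCA2, showed the smallest fall of the class, from 32.7, 33.1 and 31.3 CPM to 17.9, 17.3 and 17.6 CPM (log2 fold change -0.88 ± 0.10, adjusted p = 5.7e-07). The genes of the same protein assembly thus differed widely in their falls, with no overlap between DMSO and quizartinib libraries for any of these 3. The other 8 genes of the class fell by between 1.56 (RAD51C) and 4.11 (RAD51AP1) on the log2 scale. BRIP1 and RAD54B were at -3.93 and -3.72, BRCA2 at -3.15, the BLM helicase at -2.77, XRCC3 at -2.59 and the nuclease DNA2 at -1.89. Exons of XRCC3 share 76.7% of their bases with KLC1 on the opposite strand, and those of RAD54B 59.1% with FSBP on the same strand. The strand setting of the counting is not given in the sources used here, so the counts of XRCC3 and RAD54B are uncertain. RAD54L shares 25.1% of its exonic bases with LRRC41 on the opposite strand, so its low counts in quizartinib are uncertain for the same reason.

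The 10 Fanconi anaemia genes fell by 0.55 to 3.45 on the log2 scale. FANCI, the partner of FANCD2 in the pathway's central complex, had 96.6, 95.6 and 97.4 CPM in DMSO against 8.83, 9.98 and 7.73 CPM in quizartinib (log2 fold change -3.45 ± 0.11, adjusted p = 7.4e-14). UBE2T, the ubiquitin-conjugating enzyme that acts on this complex, had 23.02, 20.7 and 23.8 CPM in DMSO against 2.31, 2.10 and 2.59 CPM in quizartinib (-3.26 ± 0.21, adjusted p = 6.6e-10). FANCB, a core complex subunit, had 5.89, 9.72 and 9.08 CPM in DMSO against 1.23, 1.13 and 1.27 CPM in quizartinib (-2.76 ± 0.26, adjusted p = 8.4e-08). The ubiquitin ligase subunit of the core complex, FANCL, moved least, from 11.6, 14.3 and 14.8 CPM to 8.83, 10.5 and 8.41 CPM (-0.55 ± 0.14, adjusted p = 0.0026). Thus the conjugating enzyme and the ligase of the same reaction differed widely in the size of their fall. The remaining core complex genes were close to each other, with FANCC at -2.52, FANCA at -2.20, FANCG at -2.15 and FANCE at -1.98. FANCD2, the substrate, was at -2.64, and the translocase FANCM at -0.91. Exons of FANCA share 23.6% of their bases with ZNF276 and those of FANCL 18.7% with VRK2, both on the opposite strand.

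Among the break sensing and checkpoint genes, CHEK1 stood apart. CHEK1 had 54.8, 52.6 and 52.2 CPM in DMSO against 3.18, 4.30 and 4.96 CPM in quizartinib, and fell by 3.67 ± 0.15 on the log2 scale (adjusted p = 1.6e-12). CHEK2 had 30.8, 31.3 and 35.8 CPM in DMSO against 20.5, 18.7 and 23.1 CPM in quizartinib (-0.65 ± 0.10, adjusted p = 1.9e-05). ATR, the kinase upstream of CHEK1, had 66.2, 79.7 and 57.9 CPM in DMSO against 46.1, 50 and 45.1 CPM in quizartinib (-0.53 ± 0.12, adjusted p = 0.0014). The fall of CHEK1 was thus far larger than that of the kinase that activates it. ATR shares 16.4% of its exonic bases with a pseudogene, AC109992.1, on the opposite strand. ATM (chromosome 11, 108222484 to 108369102, plus strand) went the other way, with 159.6, 219.7 and 215.6 CPM in DMSO against 286.6, 311.5 and 252.4 CPM in quizartinib (0.52 ± 0.12, adjusted p = 0.0013). Every quizartinib library was above every DMSO library for ATM. NBN and RAD50 belong to the complex that recruits ATM to breaks. RAD50 had 113.2, 123.0 and 131.4 CPM in DMSO against 114.6, 118.6 and 113.7 CPM in quizartinib, groups that overlap (-0.08 ± 0.07, adjusted p = 0.33). RAD50 shares 79.7% of its exonic bases with a same-strand gene, AC116366.3, so its level is uncertain. NBN was at -0.24 ± 0.10 (adjusted p = 0.039), a call that 8 of 14 alternative settings lost, with adjusted p from 0.015 to 0.16.

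Of the 3 end joining genes, 2 fell and 1 rose. PRKDC, the catalytic subunit of the DNA-dependent protein kinase, had 1988, 1902 and 1634 CPM in DMSO against 471.6, 491.0 and 517.3 CPM in quizartinib (log2 fold change -1.90 ± 0.09, adjusted p = 1.3e-11). XRCC4, the scaffold of the end joining ligase, had 10.4, 12.5 and 14.7 CPM in DMSO against 7.09, 6.60 and 7.64 CPM in quizartinib (-0.82 ± 0.14, adjusted p = 0.00011). LIG4 (chromosome 13, 108207439 to 108218368, minus strand), the ligase that XRCC4 holds, had 10.6, 14.9 and 9.08 CPM in DMSO against 24.5, 25.7 and 26.3 CPM in quizartinib (1.15 ± 0.18, adjusted p = 4.4e-05). Every quizartinib library was below every DMSO library for PRKDC and XRCC4, and above for LIG4, so the genes of this ligase and its scaffold moved in opposite directions. Of the mismatch repair genes, MSH6, which recognises mispaired bases, had 158.1, 163.8 and 150.6 CPM in DMSO against 45.5, 47.8 and 46.7 CPM in quizartinib (-1.76 ± 0.08, adjusted p = 1.9e-11). PMS2, which nicks the strand to be corrected, had 20.5, 21.02 and 23.9 CPM in DMSO against 19.4, 18.0 and 17.8 CPM in quizartinib (-0.25 ± 0.10, adjusted p = 0.04). The PMS2 groups did not overlap, but 8 of 14 alternatives lost the call, with adjusted p from 0.033 to 0.26, and PMS2 has near-identical copies that can take its reads. RAD51AP1, FANCD2 and CHEK2 have annotated copies too, whose part in the counts was not tested. MSH6 shares 16.2% of its exonic bases with FBXO11 on the opposite strand.

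Over all 35 genes, every quizartinib library lay below every DMSO library for 32 genes, a pattern of 31.9% of all genes, and above for 2 genes, a pattern of 30.6% of all genes. Genes of proliferation moved in the same samples. MKI67, a marker of cycling cells, had 1023, 928.0 and 820.5 CPM in DMSO against 5.29, 5.53 and 8.37 CPM in quizartinib (-7.17 ± 0.16, adjusted p = 1.2e-14). PCNA, the replication clamp, was at -2.67 and CCNB1, a mitotic cyclin, at -4.54, and all 23 genes of a cell cycle list fell, with a median of -5.003. CDKN1A, an inhibitor of cell cycle kinases, was at -1.40 ± 0.30 (adjusted p = 0.00076). The share of counts taken by the small RNAs 7SK and 7SL also moved, with 10.21% to 12.41% in the DMSO libraries and 16.03% to 18.78% in the quizartinib libraries at 48 h. The part of proliferation in the fall of the repair genes was not tested, and without 7SK and 7SL 34 of the 35 genes were called, as with them.

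**Figure D2:**
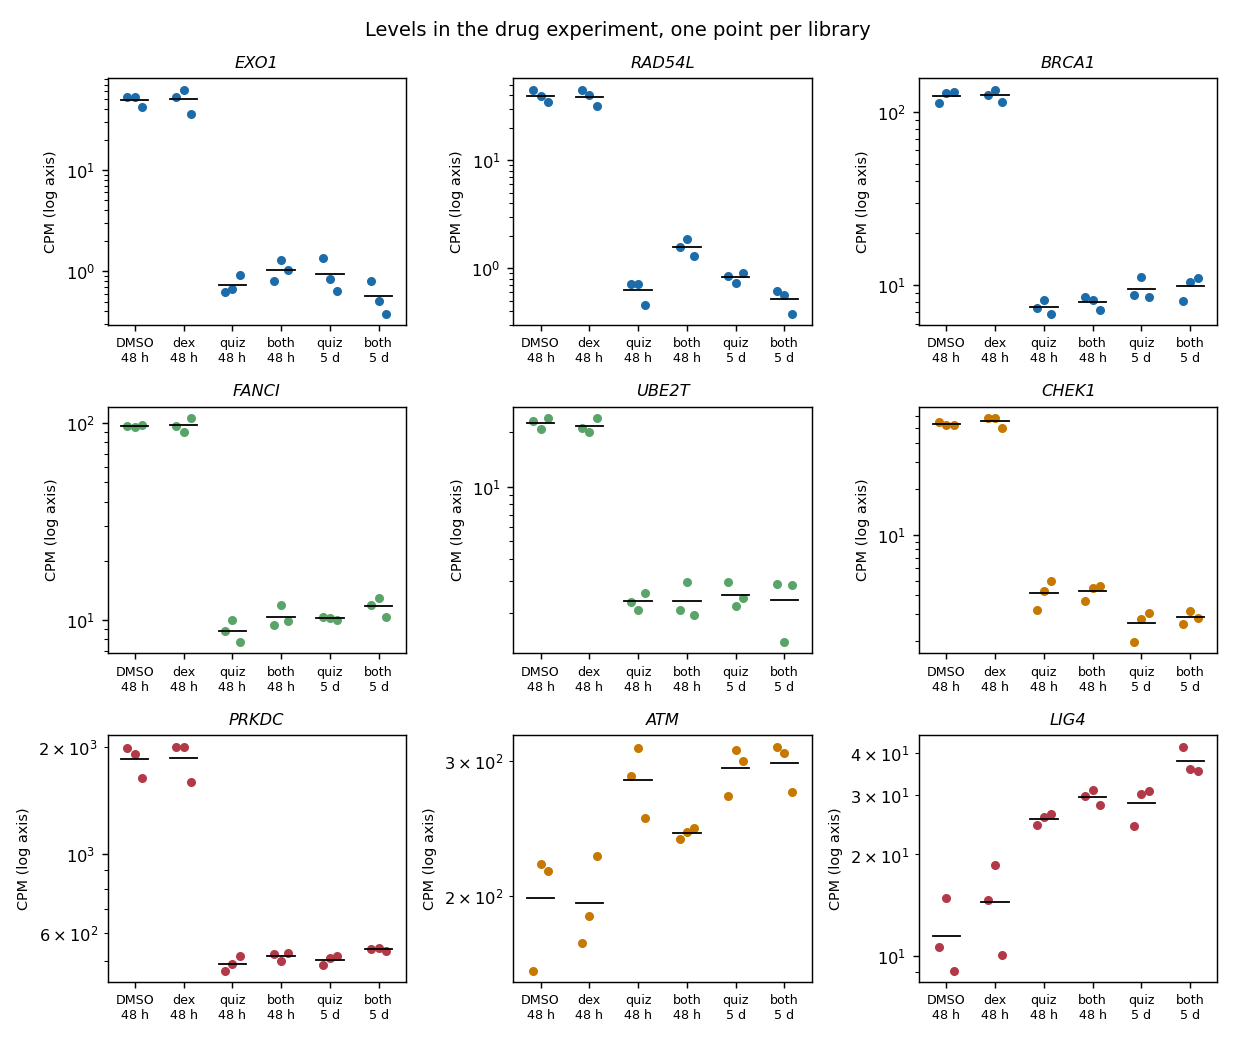
Level of 9 genes in each library of the drug experiment, in CPM on a log axis that differs between panels, with 1 point per library and a line at the mean of each group of 3 (dex, dexamethasone; quiz, quizartinib; both, the combination). EXO1, RAD54L, BRCA1, FANCI, UBE2T, CHEK1 and PRKDC are low in all 4 groups with quizartinib, and ATM and LIG4 are high there.

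Other genes of the same pathways were taken from textbook lists. Those of homologous recombination and the Fanconi pathway moved less uniformly than the genes of these classes described above. This did not hold for the further checkpoint genes. None of them rose, while among the checkpoint genes described above ATM rose and RAD50 was not called. In quizartinib at 48 h, 30.4% of all genes tested were called lower and 29% higher. Of 21 further homologous recombination genes, 12 fell and 3 rose, with a median of -0.40. This list counts POLQ, at -4.22, although POLQ is a polymerase of an alternative end joining route and not of recombination. RMI2, a partner of BLM, was at -4.09, while ABRAXAS1, a member of a BRCA1 complex, and RAD52 rose by 0.99 and 0.63. Of 13 further Fanconi pathway genes, 7 fell and 2 rose, with a median of -0.77. UHRF1 was at -4.20 and CENPS at -2.61, and WDR48 and ERCC4 at 0.46 and 0.45. Of 19 further checkpoint genes, 15 fell and none rose, with a median of -1.28 and with CDC25C and PKMYT1 lowest at -6.21 and -6.20. These counts include genes with roles in replication and mitosis as well as in repair.

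Of 14 further end joining genes, 6 fell (MAD2L2 at -1.52 and XRCC6 at -1.28 the most) and 4 rose (APLF at 1.14 and DCLRE1C at 0.48 the most), with a median of -0.13. Of 5 further mismatch repair genes, MSH5 and MLH3 fell by 1.09 and 0.49, and MSH4 rose by 1.94. Base excision and single-strand break repair had 10 of 19 genes lower and 4 higher, from FEN1 at -4.36 and UNG at -3.67 to POLB at 0.53 and NEIL1 at 1.62. Nucleotide excision repair had 9 of 19 lower and 4 higher, from CETN2 at -1.43 to ERCC6 at 0.98 and XPA at 1.01. Damage tolerance had 3 of 11 lower and 3 higher, from HLTF at -1.33 and RAD18 at -1.04 to POLK at 0.55 and POLI at 0.71, and direct reversal had 1 of 3 lower (ALKBH2 at -0.42). The medians of these last 4 lists were -0.49, -0.24, 0.01 and 0.00. The counts of each list stand beside 30.4% of all genes called lower and 29% called higher.

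Promoter sequences from RefSeq (GRCh38.p14, 250 bases before to 50 after the start) were at hand for 30 of the 35 genes. They were searched on both strands for E2F-type motifs (TTTCCCGC, TTTCGCGC, TTTGCCGC or TTTGGCGC), which are known from promoters of S phase genes, and for CHR motifs (TTTGAA or TTCGAA), known from promoters of late cell cycle genes. An E2F-type motif stood in 7 of the 30 promoters (23.3%) and in 3.33% of the 27305 promoters in the table, and a CHR motif in 4 of 30 (13.3%) and in 16.6%. By class, the E2F-type motif was in 5 of 21 recombination and Fanconi promoters (EXO1, XRCC2, FANCD2, FANCC and FANCA) and in both mismatch repair promoters (MSH6 and PMS2). RAD54L, RAD51AP1 and CHEK1 held neither. The BRCA1 window (chr17:43170278-43170577, minus strand) held neither, but it lies wholly outside the annotated BRCA1 gene (43044295 to 43170245). The search therefore cannot say whether the BRCA1 promoter holds a motif, although its window is counted among the 30 and the 21. The 4 genes with the largest falls among those with a match are shown in the direction of the gene, with the matches in capitals. The matches of XRCC2 and BRIP1 are on the other strand, as reverse complements.
EXO1, chr1:241847954-241848253, plus strand: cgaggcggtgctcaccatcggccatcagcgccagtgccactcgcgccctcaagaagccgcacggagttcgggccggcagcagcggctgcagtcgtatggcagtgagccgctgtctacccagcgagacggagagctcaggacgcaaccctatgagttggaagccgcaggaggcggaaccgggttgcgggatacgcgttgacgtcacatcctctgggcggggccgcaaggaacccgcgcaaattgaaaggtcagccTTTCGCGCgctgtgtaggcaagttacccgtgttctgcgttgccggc
XRCC2, chr7:152676092-152676391, minus strand: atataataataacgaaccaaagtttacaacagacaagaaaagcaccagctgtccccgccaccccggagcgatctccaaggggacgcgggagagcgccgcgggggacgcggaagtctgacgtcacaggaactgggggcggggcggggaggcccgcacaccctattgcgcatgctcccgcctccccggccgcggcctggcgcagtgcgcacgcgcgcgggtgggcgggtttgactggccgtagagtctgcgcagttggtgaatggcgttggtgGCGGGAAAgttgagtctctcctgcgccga
BRIP1, chr17:61863479-61863778, minus strand: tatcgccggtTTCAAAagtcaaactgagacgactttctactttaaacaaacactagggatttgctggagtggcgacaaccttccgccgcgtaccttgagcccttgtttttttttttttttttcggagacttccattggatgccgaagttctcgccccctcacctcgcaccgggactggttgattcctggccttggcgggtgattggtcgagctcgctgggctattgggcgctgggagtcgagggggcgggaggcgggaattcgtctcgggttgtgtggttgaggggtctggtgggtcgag
UBE2T, chr1:202341887-202342186, minus strand: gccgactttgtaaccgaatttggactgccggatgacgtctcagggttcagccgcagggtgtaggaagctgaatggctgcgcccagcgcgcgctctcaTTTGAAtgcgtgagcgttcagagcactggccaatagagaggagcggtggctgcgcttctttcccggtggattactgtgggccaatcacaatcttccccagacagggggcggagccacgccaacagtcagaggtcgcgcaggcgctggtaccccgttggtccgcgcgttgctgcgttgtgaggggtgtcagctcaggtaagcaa
A match says only that these letters are in the window, and its use in these cells was not measured.

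The levels of the 35 genes in the combination at 48 h and at 5 days of quizartinib were close to those of quizartinib at 48 h. Against DMSO, the combination at 48 h had 31 genes lower and 2 higher (of all genes, 63.1% were called, 31.8% as lower and 31.3% as higher), and quizartinib at 5 days had 30 lower and 2 higher (of all genes, 62.8% were called, 32.1% as lower). All these comparisons share the DMSO libraries. The genes that rose were again ATM and LIG4. LIG4 had 29.9, 31.1 and 27.95 CPM in the combination at 48 h, 24.3, 30.2 and 30.8 CPM in quizartinib at 5 days and 41.7, 35.9 and 35.4 CPM in the combination at 5 days, all above the highest DMSO library at 14.9 CPM. ATM had 237.4, 242.0 and 245.2 CPM in the combination at 48 h, and its call there (0.28 ± 0.12, adjusted p = 0.047) was lost in 5 of 14 alternatives, with adjusted p from 0.025 to 0.26. At 5 days of quizartinib ATM had 270.0, 309.6 and 300.0 CPM (0.56 ± 0.12, adjusted p = 0.00057). FANCM, PMS2 and RAD50 were not called at 5 days.

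The median homologous recombination gene was at 9.45% of its DMSO mean in quizartinib at 48 h, 11.9% in the combination at 48 h, 10.3% in quizartinib at 5 days and 11.9% in the combination at 5 days. For the Fanconi anaemia genes these medians were 19.6%, 20.6%, 21% and 22.3%. For the 5 end joining and mismatch repair genes together they were 56.7%, 55.3%, 67.6% and 71.0%. The order of the classes was thus the same in all 4 groups with quizartinib, which share 1 DMSO group.

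Between quizartinib at 5 days and at 48 h, 1 of the 35 genes was higher and 1 lower (of all genes, 3.16% were called, 0.889% as higher and 2.28% as lower). FANCD2 had 11.9, 12.3 and 11.2 CPM at 48 h and 17.4, 17.2 and 15.9 CPM at 5 days. Its groups did not overlap, and it rose by 0.51 ± 0.08 on the log2 scale (edgeR adjusted p = 0.0028). Every 5 day library lay above every 48 h library for 10 of the 35 genes (14.1% of all genes) and below for 3 (15%). CHEK1 had 3.18, 4.30 and 4.96 CPM at 48 h and 1.98, 2.81 and 3.07 CPM at 5 days, groups that did not overlap. It fell by 0.66 ± 0.17 (adjusted p = 0.042), a call lost in 7 of 14 alternatives (adjusted p from 0.012 to 0.20), also without replicate 2 or 3 of quizartinib at 48 h or without any library of quizartinib at 5 days. MKI67 was lower at 5 days by 2.52 ± 0.24 and CDKN1A by 2.20 ± 0.34 (adjusted p = 1.3e-05 and 0.002), while PCNA and CCNB1 were not called.

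Dexamethasone alone left most of these genes near their DMSO level. Of the 35 genes, 1 was called, as higher (of all genes, 12.1% were called, 5.5% as higher). An unadjusted p under 0.05 was reached by 4 of the 35 and by 3977 of all 16430 genes. BLM (chromosome 15, 90717327 to 90816165, plus strand), the helicase that unwinds recombination intermediates, had 66.7, 78.9 and 69.2 CPM in DMSO against 87.7, 96.5 and 85.9 CPM in dexamethasone. Every dexamethasone library was above every DMSO library, as for 6 of the 35 genes and 10.5% of all genes. The log2 fold change of BLM was 0.33 ± 0.09 (edgeR adjusted p = 0.026). Of 14 alternatives 4 lost this call, with adjusted p from 0.0045 to 0.13, among them those without DMSO replicate 1, DMSO replicate 3 or dexamethasone replicate 2.

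With dexamethasone added to quizartinib at 48 h, 4 of the 35 genes were higher than in quizartinib alone and none was lower (of all genes, 10.3% were called, 5.62% as higher). BLM had 10.6, 11.7 and 9.27 CPM in quizartinib and 18.4, 18.6 and 18.1 CPM in the combination (0.81 ± 0.10, adjusted p = 3.9e-05), groups well apart. RAD54L had 0.719, 0.717 and 0.455 CPM in quizartinib and 1.57, 1.85 and 1.30 CPM in the combination, from 38 and 103 reads in each group of 3 (1.34 ± 0.26, adjusted p = 0.0015). BRCA2, which loads the recombinase, had 12.1, 12.4 and 12.3 CPM in quizartinib and 19.8, 17.5 and 15.6 CPM in the combination (0.52 ± 0.12, adjusted p = 0.0097). For all 3 the groups did not overlap, yet each combination library was still far below every DMSO library. Every combination library lay above every quizartinib library for 5 of the 35 genes, a pattern of 15.3% of all genes. Without combination replicate 1 the adjusted p of BRCA2 was 0.065, the highest of its 14 alternatives. FANCD2 was at 0.29 ± 0.08 (adjusted p = 0.032), from 11.9, 12.3 and 11.2 CPM to 13.3, 14.0 and 16.2 CPM, and lost the call in 7 of 14 alternatives (adjusted p from 0.022 to 0.30). MKI67 was also higher in the combination, with 31.8, 31.8 and 33.5 CPM (2.33 ± 0.16, adjusted p = 5.6e-08), as were 11 of the 23 cell cycle genes, while PCNA and CCNB1 were not called. The part of these cell cycle genes in the values of BLM, RAD54L and BRCA2 was not tested.

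The effect of dexamethasone with quizartinib was set against its effect without quizartinib in the same model. In this fit, which uses no pairing, RAD54L was the 1 gene of the 35 for which this difference was called, at 1.36 ± 0.29 on the log2 scale (adjusted p = 0.016). Of all genes, 2.23% were called, 1.49% as higher. RAD54L had 45.1, 39.8 and 31.7 CPM in dexamethasone alone, which overlapped with DMSO. For BLM the difference was 0.48 ± 0.14 and was not called (adjusted p = 0.09). With the replicate number as a block, which uses the pairing taken from the data for both contrasts, BLM was called as well (0.48, adjusted p = 0.029). In the other 19 of 20 alternatives, which use no pairing, BLM was not called, with adjusted p up to 0.29. BLM also rose at 5 days, from 11.7, 13.6 and 10.7 CPM in quizartinib to 18.7, 19.6 and 20.4 CPM in the combination (0.70 ± 0.10, adjusted p = 0.00019). DNA2, which works with BLM in trimming broken ends, rose there too, from 5.25, 4.74 and 5.02 CPM to 7.56, 8.16 and 7.76 CPM (0.65 ± 0.13, adjusted p = 0.0043). The groups of BLM and DNA2 did not overlap at 5 days, and no alternative lost either call. Every combination library lay above every quizartinib library there for 9 of the 35 genes, a pattern of 16.1% of all genes. These were the only genes of the 35 called at 5 days (of all genes, 8.64% were called, 4.6% as higher). RAD54L had 0.846, 0.729 and 0.899 CPM in quizartinib and 0.620, 0.570 and 0.381 CPM in the combination at 5 days, and was not called (-0.68 ± 0.31, adjusted p = 0.22). Whether the response of RAD54L differs between 48 h and 5 days was not tested.

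**Figure D3:**
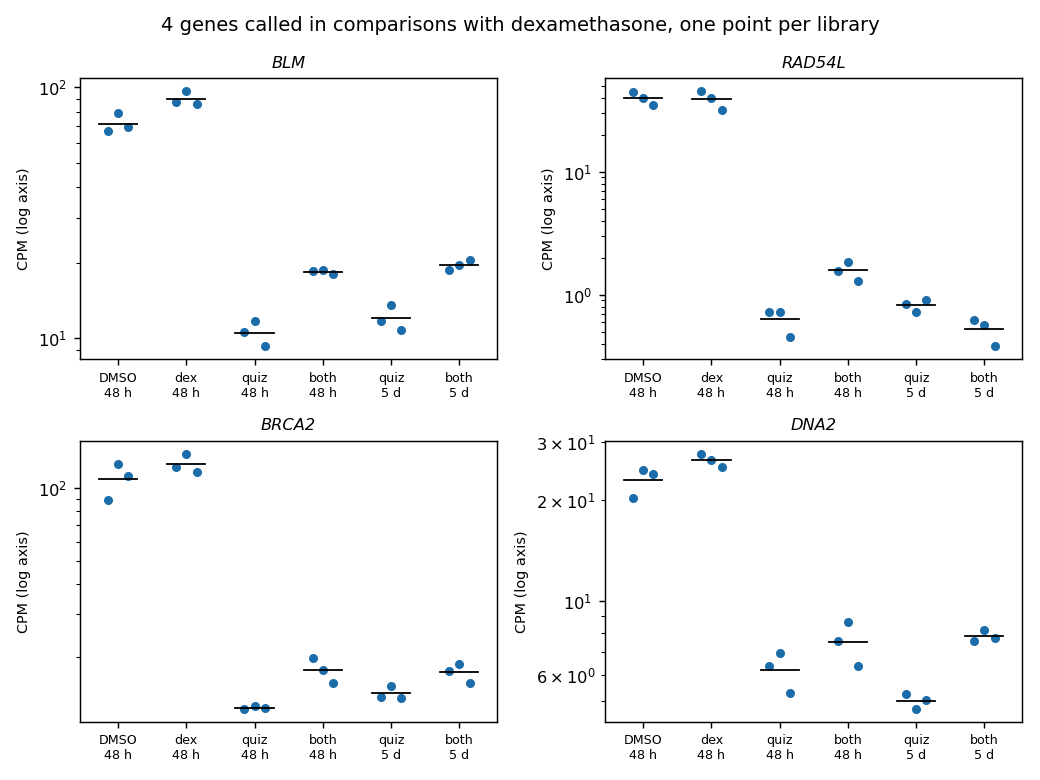
Levels of BLM, RAD54L, BRCA2 and DNA2 in each library of the drug experiment, in CPM on log axes that differ between panels, with a line at the mean of each group of 3. BLM lies higher with dexamethasone in all 3 pairs of groups, RAD54L lies higher in the combination than in quizartinib at 48 h, and DNA2 at 5 days.

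In the recovery experiment, levels per length could be compared between genes. In untreated cells PRKDC had the highest FPKM, 363.3 and 369.9, followed by FANCA with 135.6 and 151.8 and FANCI with 109.2 and 93.5. The lowest were FANCC with 5.19 and 4.99, FANCB with 6.46 and 7.67, PMS2 with 7.99 and 6.45, BRIP1 with 7.42 and 7.02 and LIG4 with 7.34 and 7.94. Of these only FANCC lies apart, since the pairs of FANCB, PMS2, BRIP1 and LIG4 overlap. Across the 35 genes, the untreated level (log2 FPKM) and the log2 fold change in 10 nM quizartinib had a Pearson r of -0.097 and a Spearman rho of -0.15, a description over genes, which are not independent replicates.

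Survivors of 48 h in 100 nM quizartinib had lower levels of most of these genes than untreated cells. Of the 35, 18 fell, ATM rose and 16 were not called (limma on log2(FPKM + 1), adjusted p under 0.05), while 14.5% of all genes were called, 6.39% as lower and 8.14% as higher. By class, 14 of 24 recombination and Fanconi genes fell, with a median difference of -2.08, and 2 of 5 end joining and mismatch repair genes fell, with a median of -0.97 (all genes, 0.18). Quantile normalisation moved the median of all genes from 0.18 to 0.04. Both survivor libraries lay below both untreated libraries for 29 genes, a pattern of 26.8% of all genes, and above for 4 genes, a pattern of 40.6%. Without any one of the 4 libraries 0 of the 35 genes were called. In the fit on the untreated and survivor libraries alone, which tested 16467 genes, 29 were called and 27 of them were lower (of all genes, 27.5% were called, 12.5% as lower).

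EXO1 had 34.6 and 37.0 FPKM in untreated cells and 1.90 and 2.17 FPKM in survivors, a difference of -3.60 ± 1.01 that missed the threshold (adjusted p = 0.059). RAD54L had 27.95 and 33.4 FPKM against 1.94 and 2.11 (-3.38 ± 0.86, adjusted p = 0.049), and XRCC2 had 8.39 and 10.1 FPKM against 0.677 and 0.301 (-2.79 ± 0.42, adjusted p = 0.023). FANCB had 6.46 and 7.67 FPKM against 0.190 and 0.127 (-2.80 ± 0.40, adjusted p = 0.021). These differences are on the log2(FPKM + 1) scale, which understates the change of low genes. All 4 genes were low in both survivor libraries. UBE2T had 55.2 and 58.6 FPKM against 4.15 and 5.28 (-3.35 ± 0.64, adjusted p = 0.029), and CHEK1 had 43.4 and 45.1 FPKM against 2.72 and 3.21 (-3.51 ± 0.79, adjusted p = 0.038). PRKDC had 363.3 and 369.9 FPKM against 89.3 and 74.8 (-2.15 ± 0.40, adjusted p = 0.028). FANCI had 109.2 and 93.5 FPKM against 25.9 and 23.6, groups well apart, but was not called (-1.99 ± 0.86, adjusted p = 0.16). ATM had 30.8 and 24.1 FPKM in untreated cells and 66.0 and 69.6 FPKM in survivors (1.29 ± 0.22, adjusted p = 0.026). LIG4 had 7.34 and 7.94 FPKM against 14.4 and 17.6, higher in both survivor libraries but not called (0.97 ± 0.41, adjusted p = 0.15). BARD1 was unlike the rest of its class, with 7.80 and 22.3 FPKM in untreated cells and 19.9 and 10.8 FPKM in survivors, groups that overlap (0.13 ± 0.64, adjusted p = 0.91). MKI67 had 95.4 and 80.2 FPKM against 2.44 and 1.16 (-5.02 ± 1.52, adjusted p = 0.071), and the median cell cycle gene was at 6.51% and 7.35% of its untreated mean in the survivor libraries, so that proliferation genes were low in the same samples. Their part in the repair genes' values was not tested.

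The experiments share no library, dose or table format, and the same genes were set side by side. Across the 35 genes, the log2 fold change in 10 nM quizartinib at 48 h and the difference in survivors of 100 nM had a Pearson r of 0.849 and a Spearman rho of 0.878. Across all 13550 genes tested in both experiments these were 0.782 and 0.797, so the value for the 35 genes is not particular to them. ATM was called higher in both experiments.

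**Figure D4:**
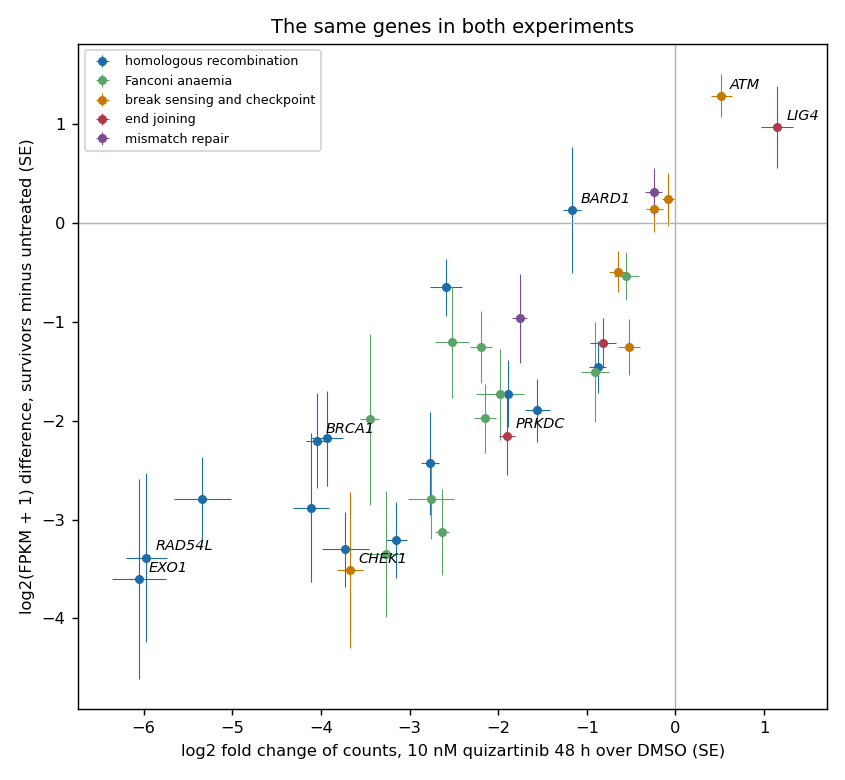
Each point is 1 of the 35 genes: the x axis is the log2 fold change of counts in 10 nM quizartinib at 48 h over DMSO, the y axis the difference in log2(FPKM + 1) between survivors and untreated cells, with bars for SE. Most genes lie at the lower left, ATM and LIG4 at the upper right, and BARD1 apart from its class at -1.17 and 0.13.

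At 13 days in drug-free medium, 0 of the 35 genes were called against untreated cells by limma (of all genes, 0.381%), and 34 of 35 differences were below 0. An unadjusted p under 0.05 was reached by 21 of the 35 and by 4075 of all 18098 genes. Both 13 day libraries lay below both untreated libraries for 27 genes, a pattern of 28.1% of all genes. The 2 libraries gave unlike pictures. In replicate 1 the median homologous recombination gene was at 51.9% of the untreated mean and the median Fanconi gene at 85.2%, and 29 of the 35 genes were above both survivor libraries, as were 32.5% of all genes. In replicate 2 these medians were 14.6% and 22.1%. There 12 genes were above both survivor libraries and 17 below both, against 26.1% and 48.8% of all genes. Without replicate 1, 23 genes were called lower than in untreated cells (of all genes, 8.73%). Without replicate 2, 0 were called (of all genes, 0.153% in either direction).

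EXO1 shows the distance, with 16.1 FPKM in replicate 1 and 0.497 FPKM in replicate 2. CHEK1 had 24.6 and 2.89 FPKM, FANCI 95.2 and 11.3 FPKM, and RAD54L 15.7 and 1.14 FPKM. For EXO1, CHEK1 and RAD54L replicate 1 lay between survivors and untreated cells, and for FANCI it lay within the untreated pair. Replicate 2 was within the survivor pair for CHEK1 and below it for the other 3. The end joining and mismatch repair genes had a median of 62.8% of the untreated mean in replicate 1 and 58.4% in replicate 2, but these medians hide unlike genes. PRKDC had 226.6 and 90.0 FPKM and MSH6 21.1 and 7.1 FPKM, while LIG4 was higher in replicate 2. XRCC4 had 10.9 and 10.1 FPKM and PMS2 5.23 and 6.29 FPKM. ATM had 18.3 and 24.6 FPKM, both far below the survivors at 66.0 and 69.6. Against survivors ATM was the 1 gene called (-1.63 ± 0.22, adjusted p = 0.039, of all genes 0.845% were called, 0.669% as lower), a call lost in 6 of 10 alternatives (adjusted p from 0.014 to 0.28). Without 13 day replicate 1 it was among those lost, with 0 genes called (of all genes, 0.276%). Without replicate 2, 22 genes were called against survivors, 20 higher and 2 lower, where 6.5% of all genes were higher and 8.73% lower. LIG4 had 4.69 FPKM in replicate 1, below untreated cells, and 12.2 FPKM in replicate 2, above them. MKI67 went with the repair genes at 46.7 and 0.204 FPKM, and the median cell cycle gene was at 53.1% and 4.41% of its untreated mean. What sets these libraries apart was not tested.

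At 30 days in drug-free medium, 0 of the 35 genes were called against untreated cells (limma, of all genes 0.127%). An unadjusted p under 0.05 was reached by 0 of the 35 and by 611 of all 18098 genes. The median difference was -0.10, and the median gene was at 90.4% of its untreated mean in replicate 1 and 95.7% in replicate 2. Both 30 day libraries lay below both untreated libraries for 9 genes, a pattern of 16.8% of all genes, and above for FANCE and RAD50, a pattern of 17.5%. EXO1 had 30.4 and 29.9 FPKM, a little below its untreated 34.6 and 37.0, and BRCA1 had 26.1 and 30.1 FPKM around its untreated 28.3 and 29.4. BLM had 40.9 and 41.3 FPKM, CHEK1 41.2 and 52.3 FPKM, and ATM 22.8 and 26.96 FPKM, each overlapping with its untreated pair. The largest difference was that of FANCB, with 2.25 and 5.59 FPKM against 6.46 and 7.67 (-0.80 ± 0.40, adjusted p = 1). PRKDC had 300.8 and 294.7 FPKM against 363.3 and 369.9 (-0.30 ± 0.40, adjusted p = 1). With 2 libraries a group and the spread of this experiment, a missed threshold does not show that the levels were equal. Between 30 and 13 days 0 genes were called (of all genes, 0.403%), with 18 at an unadjusted p under 0.05 (3615 of all 18098 genes). Without 13 day replicate 1, 21 genes were called higher at 30 days (of all genes, 7.22%), and without replicate 2, 0 were called (of all genes, 0.271% in either direction).

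**Figure D5:**
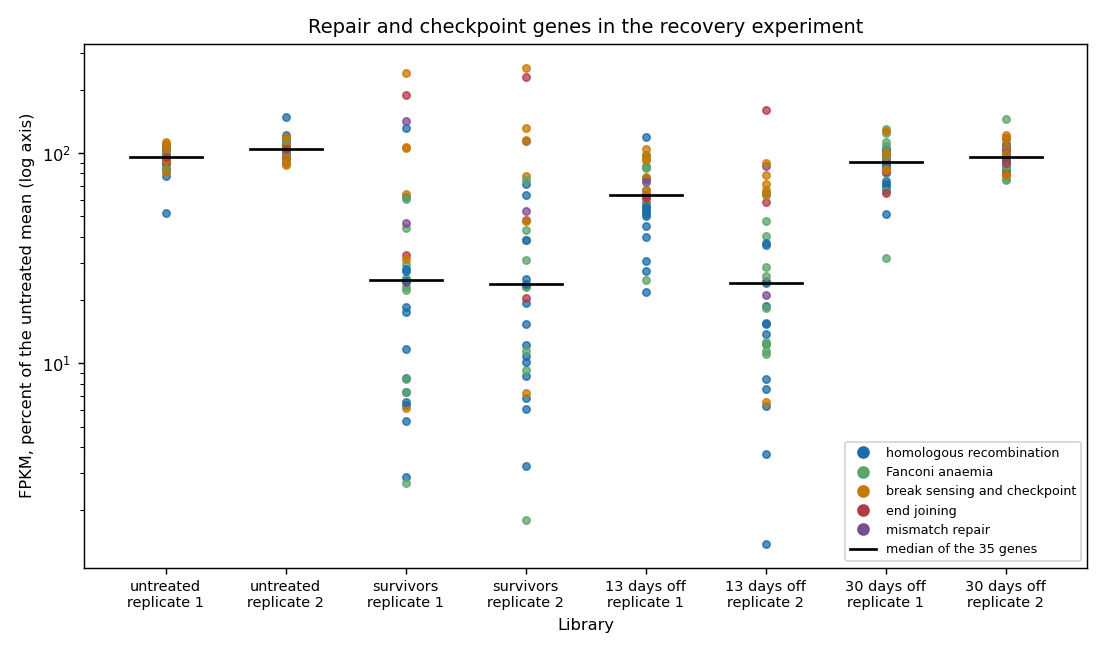
FPKM of each of the 35 genes in the 8 libraries of the recovery experiment, as a percent of the gene's mean in untreated cells on a log axis, coloured by class, with a line at the median. The median is near 100% in untreated cells, low in survivors, at 63.1% and 24.1% in the 13 day libraries, and at 90.4% and 95.7% in the 30 day libraries.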

How the data were processed

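RNA was sequenced from 18 libraries of the drug experiment and 8 of the recovery experiment. For the drug experiment the authors deposited whole-number counts, taken as raw because library totals differ. The submitters' processing notes list STAR 2.7.3, RSEM, CASAVA, DESeq2 and edgeR with the build GRCh38, without role or order. For the recovery experiment they deposited FPKM, per the file headers, and the notes list CASAVA, TopHat2 2.0.9 and Cuffdiff with hg38. An FPKM of exactly 0 can be a failed estimate. Entries not named in the files took 4.54% to 11.22% of the counts of a library, and 2153 were named from the reference by identifier.

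Counts were scaled by TMM and fitted with edgeR 4.0.16 (quasi-likelihood test, all 18 libraries, 16430 genes). For FPKM, log2(FPKM + 1) was fitted by limma-trend (limma 3.58.1) over all 8 libraries, for the 18098 genes reaching 1 FPKM in 2 or more libraries. All 35 genes passed both filters. Calls were made at a p under 0.05 after Benjamini-Hochberg adjustment over all genes of a comparison. Both fits were tested on simulated data. Alternatives were DESeq2 1.42.0, other scalings, filters and pseudocounts, a replicate block, fits on the compared groups alone, and fits without single libraries, without the libraries numbered 3 or without 7SK and 7SL. In the drug experiment the main filter removed no gene. The alternative with no filter on low counts therefore repeated the main fit there and could not lose a call. R 4.3.3, Python 3.11.15, pandas 2.3.3 and matplotlib 3.10.9 were used. Positions are from GENCODE 29 on GRCh38. In the drug experiment the counts of any 2 libraries of a group differed by more than sampling noise (lowest chi-square per degree of freedom 3.34). In the recovery experiment the 2 libraries of a group shared 0 identical FPKM values among entries above 0 in both. Libraries of different groups were not compared in this way.

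The 35 genes, the lists of other genes and the tests were chosen with earlier results of these data known. Values are given in full, in each class, for the 3 genes with the largest and the 1 with the smallest change in quizartinib at 48 h, for genes called against the majority, and for all genes called where at most 6 were. From each other list the 2 genes that fell most and the 2 that rose most were named, and promoters were printed for the 4 genes with the largest fall that had an entry and a motif match. One gene that this rule selects is not reported here. BRCA1 and BARD1 were added after their values were seen. Same-numbered libraries deviated together for dexamethasone and DMSO at 48 h (correlations 0.253 to 0.635) and for the combination and quizartinib at 48 h (0.124 to 0.271), so these were taken as paired by the data, and the replicate block changed no count of calls among the 35 genes there by more than 1.5 times. For their interaction it added the call of BLM.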

Additional observations from a re-analysis of the deposited data

Results flagged for a closer look

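For RAD54L, the effect of dexamethasone at 48 h differed between cells with and without quizartinib, by 1.36 ± 0.29 on the log2 scale (edgeR adjusted p = 0.016). All 3 combination libraries lay above all 3 quizartinib libraries, a pattern of 15.3% of all genes. The adjusted p ranged from 0.0017 to 0.082 over 20 alternatives, and 3 of them lost the call: the fit on the compared groups alone (0.051) and those without quizartinib replicate 3 (0.082) or combination replicate 2 (0.072). The difference rests on 38 reads in quizartinib and 103 in the combination. Exons of RAD54L share 25.1% of their bases with LRRC41 on the opposite strand. The strand setting of the counting is not given, so these counts are uncertain. MKI67 differed in the same direction as RAD54L, by 2.16 ± 0.22 (adjusted p = 4.6e-05). The part of proliferation in the RAD54L difference was not tested.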

How the results depend on the processing

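Over 129 calls of single genes among the 35, 1732 values were computed under the alternatives, of which 1584 stayed called in the same direction, 148 lost the call and 0 changed direction. For each call of the drug experiment, 1 of the values that stayed is from the fit with no filter, which repeats the main fit. The counts for quizartinib and the combination against DMSO, for dexamethasone added to quizartinib at either time, and for 30 days against untreated cells stayed within 1.5 times under every alternative. For dexamethasone alone, DESeq2 called 2 of the 35 genes and the fit on the compared groups alone 0, against 1. For the interaction the compared groups alone gave 0. For quizartinib at 5 days against 48 h, DESeq2 called 5 against 2. For survivors against untreated cells, 6 were called with no filter on low values and 29 with the compared groups alone, against 19, and for 13 days against survivors both settings gave 0, against 1. Leaving out single libraries gave 0 to 2 genes for dexamethasone alone, 0 to 1 for the interaction, 1 to 2 for quizartinib at 5 days against 48 h, 0 for survivors against untreated cells, 0 to 23 for 13 days against untreated cells, 0 to 22 for 13 days against survivors and 0 to 21 for 30 days against 13 days. A lone library was then assumed to vary like the other groups.

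With the replicate block, 2 genes were called for the interaction, RAD54L and BLM. Both contrasts behind the interaction were taken as paired. The block gave 4 for quizartinib at 5 days against 48 h and 0 for 13 days against survivors, where the libraries share only a number, since not every pair's correlation was over 0.1. The block moved no other count of the 35 genes by over 1.5 times.

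Of all genes, dexamethasone alone had 1993 called and 579 with the compared groups alone. The interaction had 367, and 597 with DESeq2, 189 with the compared groups alone and 572 with the block. Quizartinib at 5 days against 48 h had 520, and 923, 866 and 885 in the same order, and the combination against quizartinib at 5 days 1419, and 2430 with the compared groups alone. Survivors had 2630, and 727 with no filter and 4530 with the compared groups alone. The 13 day group had 69 against untreated cells (32 with no filter, 27 with the block) and 153 against survivors (81 with the compared groups alone, 80 with the block), and the 30 day group 23 (14 with a pseudocount of 0.1, 39 with the compared groups alone, 15 with the block). Without single libraries these counts ran from 218 to 414 for the interaction, 133 to 370 for 5 days against 48 h, 818 to 1217 for the combination at 5 days, 11 to 36 for survivors, 24 to 2231 for 13 days against untreated cells, 11 to 2695 against survivors, 4 to 25 for 30 days against untreated cells and 26 to 1733 against 13 days. Except where fewer libraries or genes entered, the cause was not tested. With 2 libraries a group and unknown depth, differences in the recovery experiment were resolved only where large.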
